A study of Mus musculus with 2 samples.

Results

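Accessible chromatin was described at 8 genes of the androgen receptor axis, the cofactors Foxa1, Hoxb13, Gata2 and Spdef and the target genes Fkbp5, Tmprss2, Ndrg1 and Slc45a3. Their regions are the mm10 gene body with 50 kb on either side. These genes were chosen by name from knowledge of the pathway, with earlier results of these data known. They are 8 of 21887 protein-coding genes on chromosomes 1 to 19, X and Y, and their regions add up to 1082 kb. The assay was ATAC-seq, in which a transposase cuts and tags open DNA, on prostate tumor cells of C57BL/6 mice in a study of progression to neuroendocrine prostate cancer. The late-stage library, M6, came from cells under tamoxifen for 6 months, and the early-stage library, W2, from cells under tamoxifen for 2 weeks. The treatment is thus common to both libraries, and its length differs. The sources used here do not say which alleles the mice carried, how old they were or whether the cells were cultured. With 1 library per stage there is no check against replicates, and every interval covers counting error only. The regions held 19 of 22570 M6 peaks and 11 of 5735 W2 peaks.

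The androgen receptor is a nuclear receptor that enters the nucleus on binding androgen and sits on response elements in chromatin. In luminal prostate cells it works with pioneer and partner factors. Foxa1, a forkhead factor, and Gata2, a zinc finger factor, are known for opening and marking enhancers, Hoxb13 is a homeobox factor of the prostate, and Spdef is an ETS factor of secretory epithelium. Fkbp5, an immunophilin that binds the HSP90 chaperone, Tmprss2, a membrane serine protease, Ndrg1, a stress-responsive cytoplasmic protein, and Slc45a3, a transporter also known as prostein, are androgen targets in human prostate cells. Neuroendocrine prostate cancer is known for low receptor activity.

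The promoter sequences that the results turn on are shown first, as RefSeq gives them for build GRCm38.p6, the assembly that mm10 names. Each runs 5′ to 3′ along the gene from 250 bases before to 50 bases after its start. Of the 8 genes, 6 had an entry in the RefSeq promoter table, with 8 entries in all, and Hoxb13 and Ndrg1 had none. In the first and the second line, capitals mark the bases under the W2 peak. The Fkbp5 promoter is shown because it was the one member promoter under a peak in both libraries, and the M6 peak covered all 300 bases of it. The Tmprss2 promoter is shown because a W2 peak covered 211 of its bases and no M6 peak touched it. The Foxa1 promoter is shown because a W2 peak lay 0.401 kb upstream of it with no M6 peak nearby, and capitals there mark a forkhead motif match (TGTTTAC, found on the opposite strand).
Fkbp5, chr17:28486100-28486399, minus strand: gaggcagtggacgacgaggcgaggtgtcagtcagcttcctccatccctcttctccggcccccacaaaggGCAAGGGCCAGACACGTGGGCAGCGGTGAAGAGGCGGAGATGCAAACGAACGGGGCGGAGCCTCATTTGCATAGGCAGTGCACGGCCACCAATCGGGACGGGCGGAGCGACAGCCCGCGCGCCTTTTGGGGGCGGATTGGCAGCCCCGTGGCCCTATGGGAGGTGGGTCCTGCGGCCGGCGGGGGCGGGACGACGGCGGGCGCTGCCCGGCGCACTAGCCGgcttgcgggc
Tmprss2, chr16:97611146-97611445, minus strand: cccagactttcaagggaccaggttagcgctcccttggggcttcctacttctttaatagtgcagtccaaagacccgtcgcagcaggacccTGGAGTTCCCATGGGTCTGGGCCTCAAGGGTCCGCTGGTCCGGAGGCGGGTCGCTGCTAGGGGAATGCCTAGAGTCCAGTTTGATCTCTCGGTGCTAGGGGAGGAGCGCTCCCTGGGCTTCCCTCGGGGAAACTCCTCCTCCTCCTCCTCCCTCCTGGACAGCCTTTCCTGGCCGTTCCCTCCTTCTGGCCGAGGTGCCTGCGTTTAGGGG
Foxa1, chr12:57546062-57546361, minus strand: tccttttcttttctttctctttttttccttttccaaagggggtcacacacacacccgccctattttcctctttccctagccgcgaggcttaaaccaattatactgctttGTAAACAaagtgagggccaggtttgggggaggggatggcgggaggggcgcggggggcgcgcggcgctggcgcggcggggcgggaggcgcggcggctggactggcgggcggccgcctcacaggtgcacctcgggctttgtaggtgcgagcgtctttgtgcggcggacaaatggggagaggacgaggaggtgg

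Motifs were searched on both strands of the 8 member entries, and each match is a description of letters, not a binding site. The androgen response element core, ACANNNTGT, was in 0 of the 8 entries and in 6.85% of all 32851 promoter entries. The hexamer AGAACA, a single arm of that element, was in 1 of the 8, the entry of Spdef, and in 18.97% of all. The forkhead motif was in 1 of the 8, that of Foxa1, and in 3.65% of all entries. The GATA motif AGATAA (11.2% of all) and CAATAAA, a HOXB13-like motif (4.60% of all), were in 0 of the 8. The GC box GGGCGG was in 5 of the 8, with 4 matches in the printed Fkbp5 sequence, 3 in that of Foxa1 and 0 in that of Tmprss2, and in 35.7% of all entries. The core and the hexamer can overlap, and these windows are short, so a motif outside them was not seen.

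The first comparison asked how many open regions each gene had at the late and at the early stage. Of the 8 genes, 5 had more peaks in M6 than in W2, 3 had as many and 0 had fewer. Over all protein-coding genes these shares were 64.2%, 33.8% and 2.07%, so the members' split lay near that of all genes. The members had a median of 2.5 M6 peaks and 1 W2 peak per region, against 2 M6 and 0 W2 peaks over all genes. The 19 M6 and 11 W2 peaks make a ratio of 1.73 (exact binomial 95% interval 0.781 to 4.02), and the ratio of the whole lists, 3.94, lies within that interval. The farthest peak inside the 50 kb limit was 36.9 kb from its gene, Fkbp5, in M6, and the nearest beyond it were an M6 peak 52.3 kb from Slc45a3 and, near Fkbp5, one at 57.1 kb in M6 and one at 57.4 kb in W2.

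**Figure D1:**
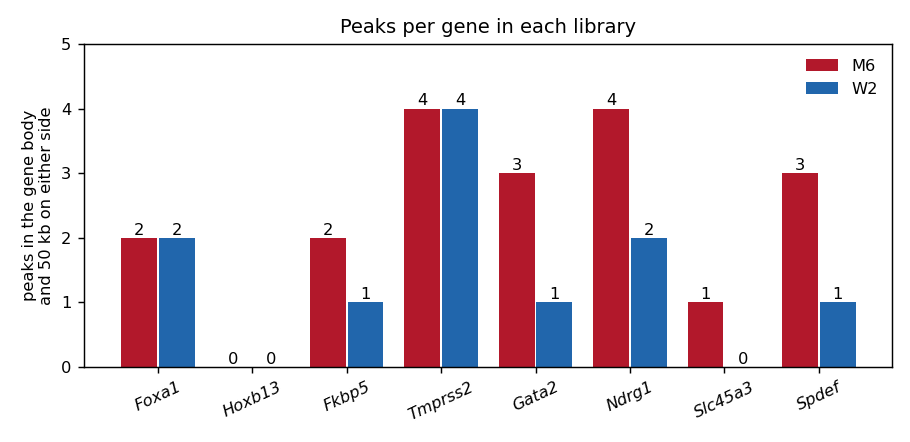
Number of peaks (vertical axis) in the gene body and 50 kb on either side of each of the 8 genes, with M6 in red and W2 in blue, 1 library each. Foxa1 and Tmprss2 have equal numbers, Hoxb13 has 0 in both, and the other 5 genes have more in M6.

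Tmprss2, on chr16:97564682-97659541, had 4 peaks in M6 and 4 in W2, of which 2 in each library were the same sites. Its start site in the promoter table, at 97611195, lay under a W2 peak at chr16:97611087-97611356, with 21 tags at the summit over a local background of 3.72 tags. That is a fold of 4.66 and a −log10 q of 6.17, where q is the p-value of the summit adjusted over its library, so that higher means stronger. M6 had no peak there, and its nearest one lay 16.9 kb from the promoter entry. M6 peaks with a local background within 10% of 3.72 tags started at 12 tags, so an M6 signal below about that level would not be listed. A second site with a peak in W2 alone, at chr16:97593060-97593259, had 19 tags and a −log10 q of 4.58, and its summit was 967 bp from the nearest M6 summit. The 2 further M6 peaks lay below the gene, at chr16:97535084-97535304 (15 tags, −log10 q 2.16) and chr16:97536103-97536314 (19 tags, 4.39). Inside the gene model W2 therefore had 4 peaks and M6 had 2. The model also runs upstream of the start site at 97611195. The shared site with its M6 peak at chr16:97632874-97633300 lay 21679 bp upstream of that start site.

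Foxa1, on chr12:57540628-57548029, had 2 peaks in each library and none in common. The W2 peak nearest to its start, at chr12:57546762-57547027, began 651 bp upstream of the start site at 57546111 and had 21 tags, a fold of 4.23 and a −log10 q of 5.33. This W2 peak lay inside the Foxa1 gene model. The upper end of that model was just over 1 kb away, so the peak was not counted as a Foxa1 gene-end peak. It lies within 1 kb of the lower end, at 57546704, of Ttc6, a neighbouring gene whose model overlaps that of Foxa1. Ttc6 is on the plus strand, so that lower end is the 5′ end of its model. The promoter entry of Ttc6, at chr12:57563865-57564164, lies inside that model and was not under the peak. Whether the peak belongs to Foxa1 or to Ttc6 was not tested. The nearest M6 peak was 29.6 kb from the Foxa1 promoter entry. The other W2 peak (chr12:57515835-57516073, 18 tags, −log10 q 5.55) lay 24.6 kb below the gene. The M6 peaks were a weak one at chr12:57512912-57513333 (12 tags, −log10 q 2.66), whose summit was 2932 bp from the nearest W2 summit, and one at chr12:57575990-57576284 (24 tags, −log10 q 9.91), 28.0 kb above the gene. The peak above the gene lay inside Ttc6. It had the most summit tags and the highest −log10 q of either library in the Foxa1 region, with q adjusted within each library.

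Fkbp5, on chr17:28398753-28486149, had 2 M6 peaks and 1 W2 peak. Its start was open in both libraries, at chr17:28486016-28486423 in M6 (26 tags, fold 6.59, −log10 q 12.4) and at chr17:28486110-28486330 in W2 (21 tags, fold 5.0, −log10 q 6.79). The tag ratio was 1.24 (exact binomial 95% interval 0.670 to 2.31), so the tag counts, not scaled for depth, did not differ beyond counting error. The M6 peak was the broader, with 408 bp against 221 bp in W2. The other M6 peak, at chr17:28523037-28523339, lay 36.9 kb beyond that end with 25 tags and a −log10 q of 8.23, and W2 had none there.

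Ndrg1, on chr15:66929318-66969641, had 4 M6 peaks and 2 W2 peaks. Both libraries had a peak at the upper end of the gene, at chr15:66969551-66969886 in M6 (39 tags, fold 5.29, −log10 q 14.2) and chr15:66969562-66969820 in W2 (22 tags, fold 4.42, −log10 q 5.97), with summits 7 bp apart. The tag ratio of 1.77 had an interval of 1.03 to 3.14, and its log2 of 0.83 stands beside a median of 0.55 over all 4618 shared sites, 85.8% of which had more tags in M6. The local background there was 6.56 tags in M6 and 4.20 tags in W2, and its part in the higher tag count was not tested. M6 alone had a second peak at that end (chr15:66968362-66968962, 25 tags, −log10 q 5.03) and one near the lower end, 1.91 kb inside the gene (18 tags, 3.70). Beyond the gene, M6 had a peak 26.1 kb and W2 one 28.7 kb above it, with 19 and 18 tags and summits 2520 bp apart.

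Gata2, on chr6:88193891-88207032, had 3 M6 peaks and 1 W2 peak, and none in common. The M6 peaks lay outside the gene. The nearest, 4.00 kb below it at chr6:88189630-88189892, had 21 tags and a −log10 q of 6.82, and the others, 24.2 kb below and 27.1 kb above, had 20 and 17 tags. The W2 peak lay inside the gene near its upper end, at chr6:88205331-88205602, with 22 tags, a fold of 4.21 and a −log10 q of 5.55. Neither of the 2 promoter entries of Gata2 lay under a peak.

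Spdef, on chr17:27714446-27731003, had 3 M6 peaks and 1 W2 peak, all outside the gene. The shared site, about 6 kb below the gene and inside the neighbouring Pacsin1, had 24 tags in M6 (fold 4.98, −log10 q 8.43) and 16 tags in W2 (fold 3.73, −log10 q 3.23). The ratio of 1.5 had an interval of 0.764 to 3.02, so these unscaled tag counts did not differ beyond counting error. The other M6 peaks lay 9.94 kb above the gene (24 tags, −log10 q 7.35) and 29.0 kb above it, inside Ilrun (22 tags, 6.18).

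Slc45a3 and Hoxb13 had almost no peaks in their regions. Slc45a3, on chr1:131962915-131982972, had 0 W2 peaks and 1 M6 peak, which lay 24.8 kb from it at the end of the neighbouring Elk4 and was weak (14 tags, −log10 q 2.40). Neither of its 2 promoter entries lay under a peak. Hoxb13, on chr11:96194316-96196610, had no peak of either library within 50 kb, and the nearest on its lower side was 118 kb away in both. Of all protein-coding genes, 74.4% had an M6 peak and 48.3% a W2 peak in the same kind of region, and 24.6% had none of either library. Among the members these were 7, 6 and 1 of 8.

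**Figure D2:**
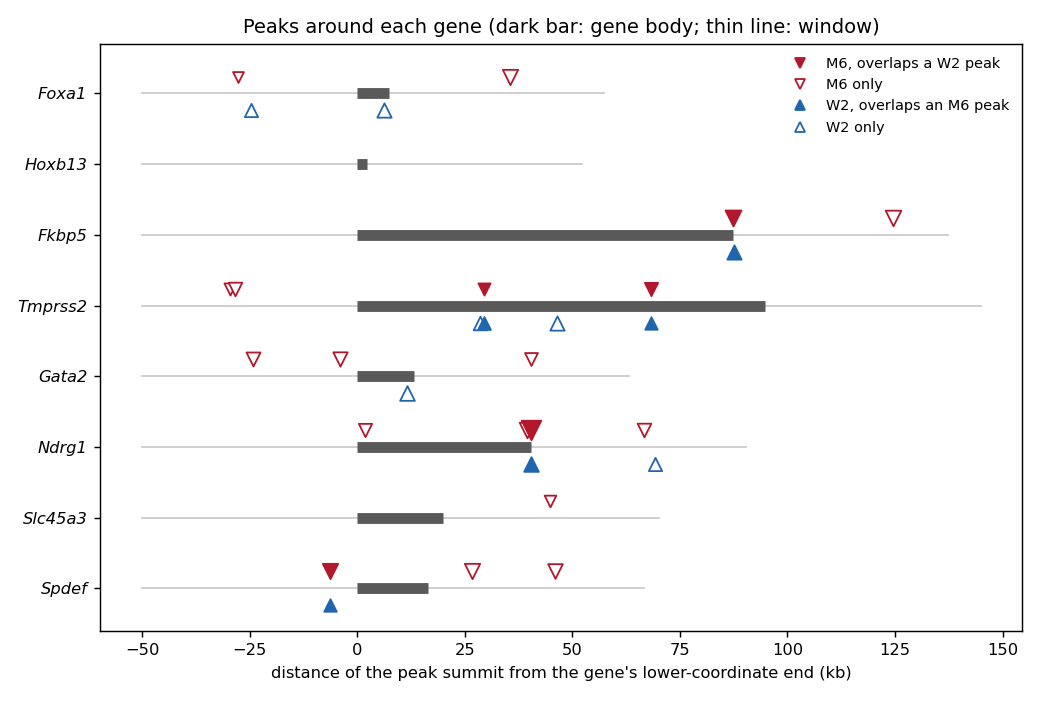
Peaks of M6 (red, above each line) and W2 (blue, below it) by distance of the summit from the lower-coordinate end of each gene in kb. The dark bar is the gene body, the thin line the region, the symbol area is proportional to the summit tags, and filled symbols mark sites with a peak in both libraries. Filled pairs stand at Fkbp5, Ndrg1 and Spdef and at 2 sites inside the Tmprss2 gene body, and Foxa1 and Gata2 have open symbols alone.

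The next question was whether the early sites were still open at the late stage. Of the 19 M6 member peaks, 5 overlapped a W2 peak by at least 1 bp (26.3%, exact binomial 95% interval 9.15 to 51.2%), against 20.2% of all M6 peaks, and 14 did not, against 79.8% of all. Of the 11 W2 member peaks, 5 overlapped an M6 peak (45.5%, 16.7 to 76.6%), against 80.5% of all W2 peaks, which puts the share of all W2 peaks above that interval. W2 peaks with no M6 counterpart were 6 of 11 at the members and 19.5% of the list. Of the 11 W2 member peaks, 4 are from Tmprss2, and the interval takes peaks as independent. Position and strength also differed between the members and the list, and their part in the lower share was not tested. Of the 11 W2 member peaks, 3 lay within 1 kb of an annotated gene end (27.3%), against 60.3% of the W2 list, and sites away from ends were shared less often in the whole list. Away from gene ends, 3 of 8 member peaks were shared (37.5%, 8.52 to 75.5%), against 58.8% of all such W2 peaks, which lies within that interval. W2 peaks of the whole list with a −log10 q within the range of the members were shared in 74.8% of cases, and in 54.4% away from gene ends. At gene ends, 2 of 3 were shared, against 94.8% of the list, the exception being the peak at Foxa1 and Ttc6.

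The start sites of the genes were counted in a comparison added after the peaks had been seen. Of the 6 genes with a promoter entry, 1 had an M6 peak within 1 kb of a start site (Fkbp5) and 3 had a W2 peak there (Fkbp5, Tmprss2 and Foxa1). Over the 17492 protein-coding genes with an entry, 42.3% had such an M6 peak and 19.9% a W2 peak. Genes with a W2 peak and no M6 peak at a start site were 0.669% of all, and 2 of the 6. Of the 3482 genes with a W2 start-site peak, 3.36% had no M6 one, against Tmprss2 and Foxa1 of the 3 members. The lowest local background was 2.65 tags in M6 and 2.96 tags in W2. Read depth was not given, and the part of depth in these M6 gaps was not tested. Taking the 300-base entries themselves, 1 of the 8 lay under an M6 peak and 2 under a W2 peak, beside 26.1% and 11.9% of all entries, and the entry under a W2 peak alone, that of Tmprss2, stands beside 0.481% of all. Measured at annotated gene ends instead, 2 members had a peak in M6 and the same 2, Fkbp5 and Ndrg1, in W2, against 39.7% and 18.4% of all genes. The W2 peak inside Foxa1 lay just over 1 kb from the upper end of that gene and so was not counted. That peak is also near the 5′ end of the Ttc6 model, so its count as a Foxa1 start-site peak rests on distance alone.

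At the 5 sites with a peak in both libraries, summit tags were higher in M6 at 4 and lower at 1, against 85.8% higher at all shared sites. The lower one was inside Tmprss2, at chr16:97593833-97594232 in M6 (15 tags) and chr16:97594185-97594515 in W2 (17 tags), where the peaks overlapped by 48 bp. The other shared site of Tmprss2 had 18 tags in M6 and 16 in W2, over 97632874-97633300 in M6. The median log2 ratio of tags, M6 over W2, was 0.31 at the member sites and 0.55 at all shared sites.

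**Figure D3:**
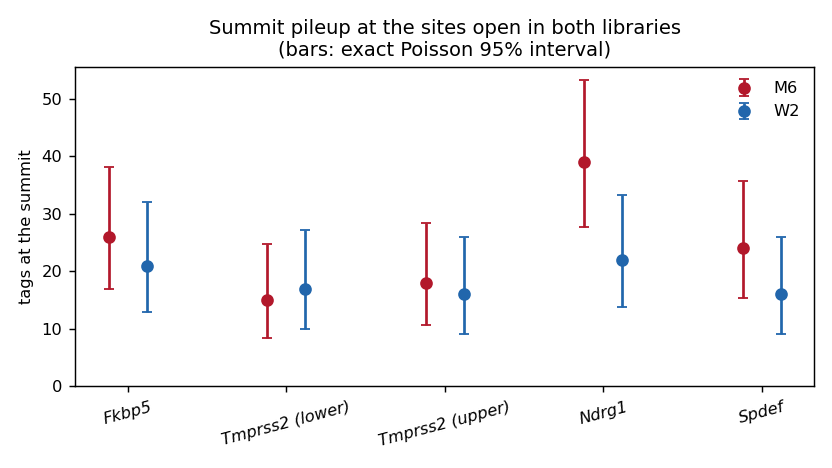
Tags at the summit (vertical axis) in M6 (red) and W2 (blue) at the 5 member sites open in both libraries, with exact Poisson 95% intervals as bars. The bars of M6 and W2 overlap at every site, and the widest gap, 39 against 22 tags, is at Ndrg1.

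The member peaks were of ordinary to low strength in both libraries. In M6 their −log10 q had a median of 6.06 and ran from 2.16 to 14.2, beside a median of 6.92 for the list, and 7 of 19 lay above the list median. In W2 the median was 5.55, with a range from 3.23 to 6.79, beside 6.30 for the list, and 1 of 11, the Fkbp5 start, lay above the list median. Since the lists differ in length, the 5735 strongest M6 peaks by −log10 q were set beside the 5735 of W2. Among these were 2 of the 19 M6 member peaks, at annotated ends of Ndrg1 (rank 3266) and Fkbp5 (rank 4347), while 25.4% of all M6 peaks were among them. With equal numbers, 0 members had more peaks in M6, 5 had fewer (Foxa1, Tmprss2, Gata2, Ndrg1 and Spdef) and 3 had as many, whereas 14.8% of all genes had more and 21.8% fewer. Widths were ordinary, with a median of 336 bp in M6 and 270 bp in W2, beside 337 and 286 bp for the lists. The highest local background at a member was 1.88 times the library median in M6, at Ndrg1, and 1.3 times in W2, at Gata2.

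**Figure D4:**
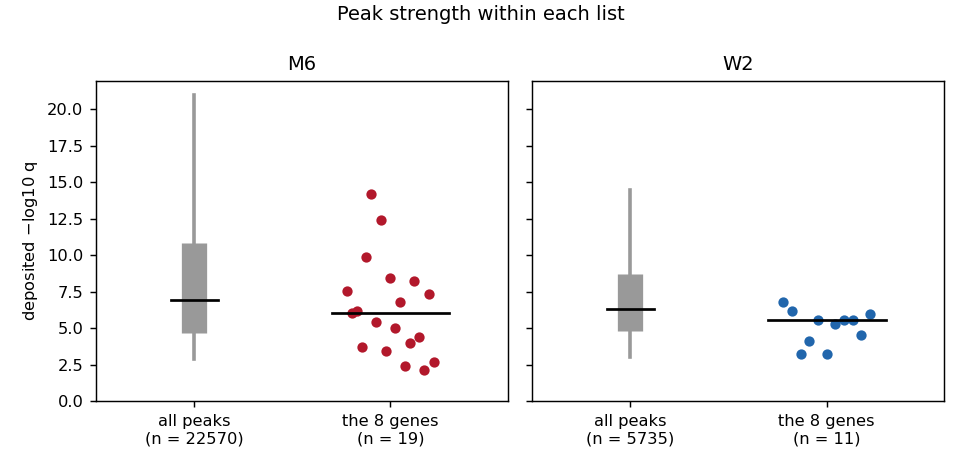
The −log10 q (vertical axis) of the member peaks (coloured points, with their median as a line) beside all peaks of the same library, M6 left and W2 right. Grey thick bars span the middle 50% and thin bars the middle 90% of the list, and black lines are medians. The members' medians, 6.06 in M6 and 5.55 in W2, lie below those of the lists.

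Other genes of the pathway were counted by peaks within 1 kb of a gene end. Their lists were drawn up from general knowledge, with earlier results of these data known. Of 22 coregulators, 11 had a gene-end peak in M6 and 1 in W2, with 10 in M6 only. Of 37 androgen targets known in human or mouse, 17 had one in M6 and 9 in W2, with 8 in M6 only. Together that is 47.5% of 59 genes in M6 (exact binomial 95% interval 34.3 to 60.9%) and 16.9% in W2 (8.44 to 29.0%), beside 39.7% and 18.4% of all protein-coding genes, which lie within these intervals. A gene-end peak in M6 alone was found at 18 of the 59, beside 21.9% of all genes, and in W2 alone at 0 of the 59, beside 0.649% of all genes.

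The coregulator with peaks in both was Tle3, a corepressor, with a −log10 q of 2.18 in M6 and 2.96 in W2. The −log10 q is adjusted within each library, so these values are given side by side and not as a difference. Among the targets with both, the strongest were Eaf2, a partner of the elongation factor ELL (31.1 in M6 and 13.9 in W2, a peak shared with the end of Golgb1), Uap1, an enzyme of UDP-N-acetylglucosamine synthesis (30.7 and 13.1), and Zbtb10, a zinc finger repressor (24.03 in M6 and 10.7 in W2). Cenpn, a centromere protein, had 17.3 in M6 and 8.57 in W2. Ell2, an elongation factor, had 17.0 in M6 and 11.9 in W2. Acsl3, an acyl-CoA synthetase whose peak is shared with the end of Utp14b, had 9.09 and 6.02, and Gnmt, a glycine methyltransferase, had 3.69 and 3.51. Per1, a clock gene, had 11.6 in M6 and 12.3 in W2, with 39 and 34 tags at the summit. Ptger4, a prostaglandin receptor, had 6.06 in M6 and 7.03 in W2, with 23 tags in each.

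The strongest of the gene-end peaks in M6 alone were those of Herc3, a ubiquitin ligase (18.7), Pias1, a SUMO ligase that binds the receptor (13.2), Abcc4, an efflux pump (13.2), the chaperone gene Hsp90aa1 (9.47), Mboat2, a lipid acyltransferase (8.54), and the acetyltransferase gene Ep300 (8.01). Counted over whole regions, 44 of the 59 genes had more peaks in M6, 15 as many and 0 fewer, beside 64.2%, 33.8% and 2.07% of all protein-coding genes, in lists that differ 3.94 times in length.

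**Figure D5:**
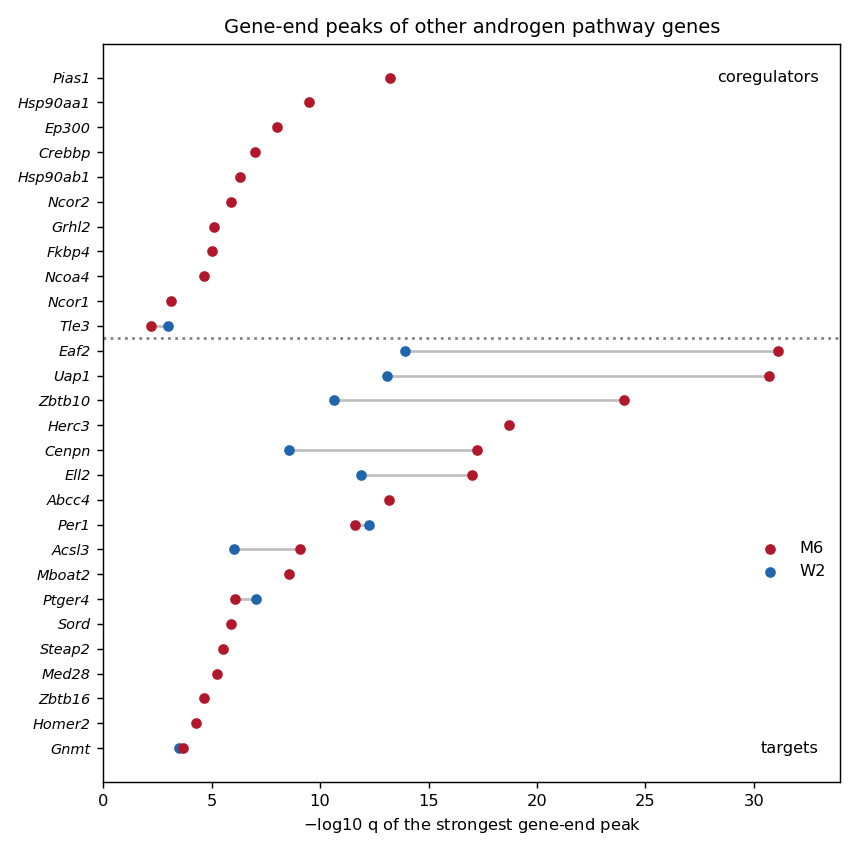
The −log10 q (horizontal axis) of the strongest gene-end peak in M6 (red) and W2 (blue) for the 28 coregulators and targets with one, joined by a grey line where both libraries have a peak. Coregulators are above the dotted line and, apart from Tle3, show M6 points alone, while 9 of the 17 targets show both.

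Marker genes were read the same way, beside gene-end peaks at 39.7% of all genes in M6 and 18.4% in W2. The 7 general epithelial markers were Epcam, Cdh1, Krt8, Krt18, Cldn3, Cldn7 and Elf3. Of these, 6 had a gene-end peak in M6 (exact binomial 95% interval 42.1 to 99.6%) and 4 in W2 (18.4 to 90.1%). The secretory luminal markers Pbsn, Msmb, Tgm4 and Acpp, themselves androgen targets, had 0 of 4 in both libraries, an interval of 0 to 60.2%. Basal (3 genes), leukocyte (5), endothelial (4), fibroblast (4), smooth muscle (3) and hepatocyte (3) markers had 0 in both, and of 5 neuroendocrine markers Ncam1 alone had one, in M6. These lists are short, and the intervals of those with no peak include the share of all genes, so the zeros do not set any of them apart. Between the libraries, fewer cells of a type with an open site and less opening per cell cannot be told apart.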

How the data were processed

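Each library has 1 deposited peak list. Build mm10 and the tools Bowtie2, deepTools, SAMtools 1.4 and Trim Galore 0.5.0 are named in the submitters' processing notes. The sources used here do not name the peak caller, its threshold or how read ends and duplicates were handled. Each peak carries a fold over local background that the authors deposited as a linear ratio, deposited −log10 p and −log10 q values, a deposited score, not used, and a summit. Peaks outside chromosomes 1 to 19, X and Y were left out (24 in M6, 30 in W2). Read depth was not given. Summit tags and local background were recovered from fold and −log10 p, as fold = (tags + 1)/(background + 1) and a Poisson upper tail, and a whole number within 0.001 was found for 100% of peaks, a step tested on simulated data. Recovered tags start at 10 in M6 and 12 in W2, so weaker sites are in neither list.

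Genes and start sites came from RefSeq tables of GRCm38.p6, which hold no exons, so exon and intron were not assigned. The members and all lists were chosen with earlier results of these data known, so counts are a description and no test between stages was made. All 8 members are named. Other pathway genes are named if they had a gene-end peak in W2 or were among the 6 strongest in M6 only. Some genes of the pathway are not reported here. Shares carry exact (Clopper-Pearson) 95% intervals, which take peaks or genes as independent. Intervals of tag ratios take tags as independent molecules, and the tags in them were not scaled for read depth. Alternatives covered region width, gene-end distance, equal peak numbers, stricter thresholds and the overlap rule. Python 3.11.15, pandas 2.3.3, SciPy 1.17.1 and matplotlib 3.10.9 were used.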

Additional observations from a re-analysis of the deposited data

How the results depend on the processing

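Region width set the number of M6 peaks. With 10 kb on either side of the genes, M6 and W2 had 9 peaks each, and 55.6% of the M6 ones had a W2 counterpart. Of all M6 peaks 20.2% had one, and of those within 1 kb of a gene end 39.1%. With 100 kb M6 had 37 peaks. With equal numbers of peaks by −log10 q, M6 kept 2 peaks at the 8 genes (100% with a W2 counterpart). It kept a gene-end peak at 9 of the 59 other pathway genes, beside 16.5% of all protein-coding genes. Ranking by fold left 1 M6 member peak (100% with a W2 counterpart), 1 member with an M6 gene-end peak, 8 other pathway genes with one, and an M6 counterpart for 9.09% of W2 member peaks, beside 18.2% when ranked by −log10 q. Both settings leave fewer M6 peaks by construction, so the share of W2 peaks with an M6 counterpart can only fall. The shares of all peaks under these settings are not given here, so these member shares are not a result about the members. A −log10 q of at least 5 left 12 M6 and 7 W2 member peaks, and 28.6% of the W2 ones had an M6 counterpart. This threshold cuts both lists. The share of all W2 peaks under it is not given here, so the 28.6% is not a result about the members. With gene ends widened to 5 kb, 4 members had a W2 gene-end peak, and the share of all genes at that distance is not given here. With start sites within 1 kb, an alternative chosen after seeing the data, 1 member had an M6 peak. The median log2 ratio at shared sites stayed between 0.26 and 0.57 under all 10 alternatives tried for it. It rested on 2 sites with equal numbers by −log10 q and with a −log10 q of at least 5. Equal numbers by fold left 1 site. With 10 kb, a common lowest count of 12 tags or summits within 250 bp the same 5 sites were used, so it could not move. The lowest, 0.26, was of deposited folds in place of tags, and the lowest of tags was 0.31. Tags divided by the lowest local background of their library gave 0.47. No paired analysis was possible because each stage had 1 library. Precision is limited by summits of 12 to 39 tags.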

Other observations

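Base composition was read in the same promoter entries. Over all 32851 entries the median GC content was 52.7%, with 62.7% under an M6 peak and 63.0% under a W2 peak. The Fkbp5 entry, under a peak in both libraries, had 70.7% GC and an observed-to-expected CpG ratio of 0.87. The Tmprss2 entry, under a W2 peak alone, had 62.3% and 0.45. Entries with no peak were as rich in some members: the Gata2 entries had 69.3% and 73.7% GC, with CpG ratios of 0.90 and 0.76, and that of Foxa1 had 62.3% and 0.93. The entry of Spdef (53.3%, 0.33) and the second of Slc45a3 (51.3%, 0.10) were the poorest in CpG. The median CpG ratio of entries under an M6 peak was 0.80, against 0.27 for entries under none.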
